A study of Mus musculus with 6 samples.

Results

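DEAD and DEAH box RNA helicases were followed in starved mouse embryonic fibroblasts. They were taken as every gene whose symbol in the array annotation begins with Ddx or Dhx and a digit, apart from Ddx58, Dhx58, Ddx21 and Ddx3y, which the rule leaves out. This gave 37 genes, measured by 75 probe sets, of 12393 genes and 20380 probe sets with a single gene on the arrays. The tested cells were wild-type fibroblasts starved for 6 h (3 arrays), and the control cells were wild-type fibroblasts kept in normal medium (3 arrays). The labels give the cell line as MEF, fibroblasts grown from mouse embryos, and do not say what the starvation medium lacked. Total RNA was labelled with biotin and hybridised to short-oligonucleotide arrays. The titles number 3 biological replicates in each group but name no separate cultures, so the p-values speak only of array-to-array spread, part of which may be technical.

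These proteins use ATP to open short RNA duplexes or to remodel complexes of RNA and protein, and most are named after the amino acids Asp-Glu-Ala-Asp or Asp-Glu-Ala-His in the motif that binds ATP and magnesium. Different members work at nearly every step in the life of an RNA, from transcription and splicing through nuclear export and translation to decay, and a large nucleolar set assembles ribosomes. In fibroblasts most of them are housekeeping genes, whereas a few are restricted to germ cells or induced by interferon.

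Levels are given as log2 array signals and differences are log2 starved minus control values, with the SE from limma's fit across all genes. A gene was called when its Benjamini-Hochberg adjusted p over all 12393 genes was below 0.05. A fall in a signal cannot be told apart from fewer cells that express the gene. Array medians lay between 6.77 and 6.81 in starved and between 6.73 and 6.74 in control arrays. Correlations between arrays were at least 0.997 within starved and 0.998 within control arrays and at most 0.984 between the groups. The 3-prime minus 5-prime difference of the actin control probe sets, a sign of RNA integrity, was 0.060 to 0.138 in starved and 0.011 to 0.027 in control arrays. That of the Gapdh control probe sets overlapped, at −0.095 to 0.022 in starved and −0.023 to 0.030 in control arrays. The part of these differences in the results was not tested. Of 11 measured fibroblast markers 9 were in the top brightness quartile, with Thy1 near the dim end (4.60 in starved and 4.99 in control cells). Of the 11 fibroblast markers 7 were higher (63.6%, against 22.1% of all genes), 2 lower (18.2%, against 22%) and 2 not called, with a median difference of 0.31. All 17 measured markers of other cell types lay among the dimmest 40% of genes. Of these 3 were higher (17.6%, against 22.1% of all genes), among them the pluripotency factor Nanog (difference 1.50) and the epithelial cadherin Cdh1 (0.91). The 2 lower ones (11.8%, against 22%) were the endothelial genes Kdr (−0.27) and Pecam1 (−0.27), and 12 were not called. Differences were negative for 13 of these 17 markers, with a median of −0.14. Their summed linear signal was 440 to 490 in starved and 414 to 432 in control arrays, and that of the fibroblast markers 81473 to 82586 in starved and 66036 to 68441 in control arrays, and the part of either in the results was not tested. An array signal has no true 0, so no marker was at 0.

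Helicases changed in both directions and no more often than other genes. Of the 37 members 8 were higher, 8 lower and 21 not called, so 43.2% were called, against 44.1% of all genes tested. Higher members made up 21.6% of the family, against 22.1% of all genes, and lower members 21.6%, against 22%. The median difference was 0.05 over the members and −0.05 over all genes. The arrays of the groups did not overlap for 19 members (51.4%), against 54% of all genes. These shares lie near those of all genes, dim ones included, but only 3 of the 37 members were among the dimmest 40% of genes. With those genes left out, 20.6% of the 34 members kept were higher, against 36.1% of all genes kept. Lower members then made up 26.5%, against 29.7%, a comparison that was not tested. A difference of at least 0.5 with a call was reached by 5 members, against 18.3% of all genes. Of these members 4 were higher, against 10.9% of all genes, and 1 lower, against 7.42%. The 5 were Ddx60, Dhx40, Ddx50, Dhx57 and Ddx18. The 27 members with Ddx symbols had 4 higher and 7 lower genes, and the 10 with Dhx symbols had 4 higher and 1 lower, a split that was not tested.

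**Figure D1:**
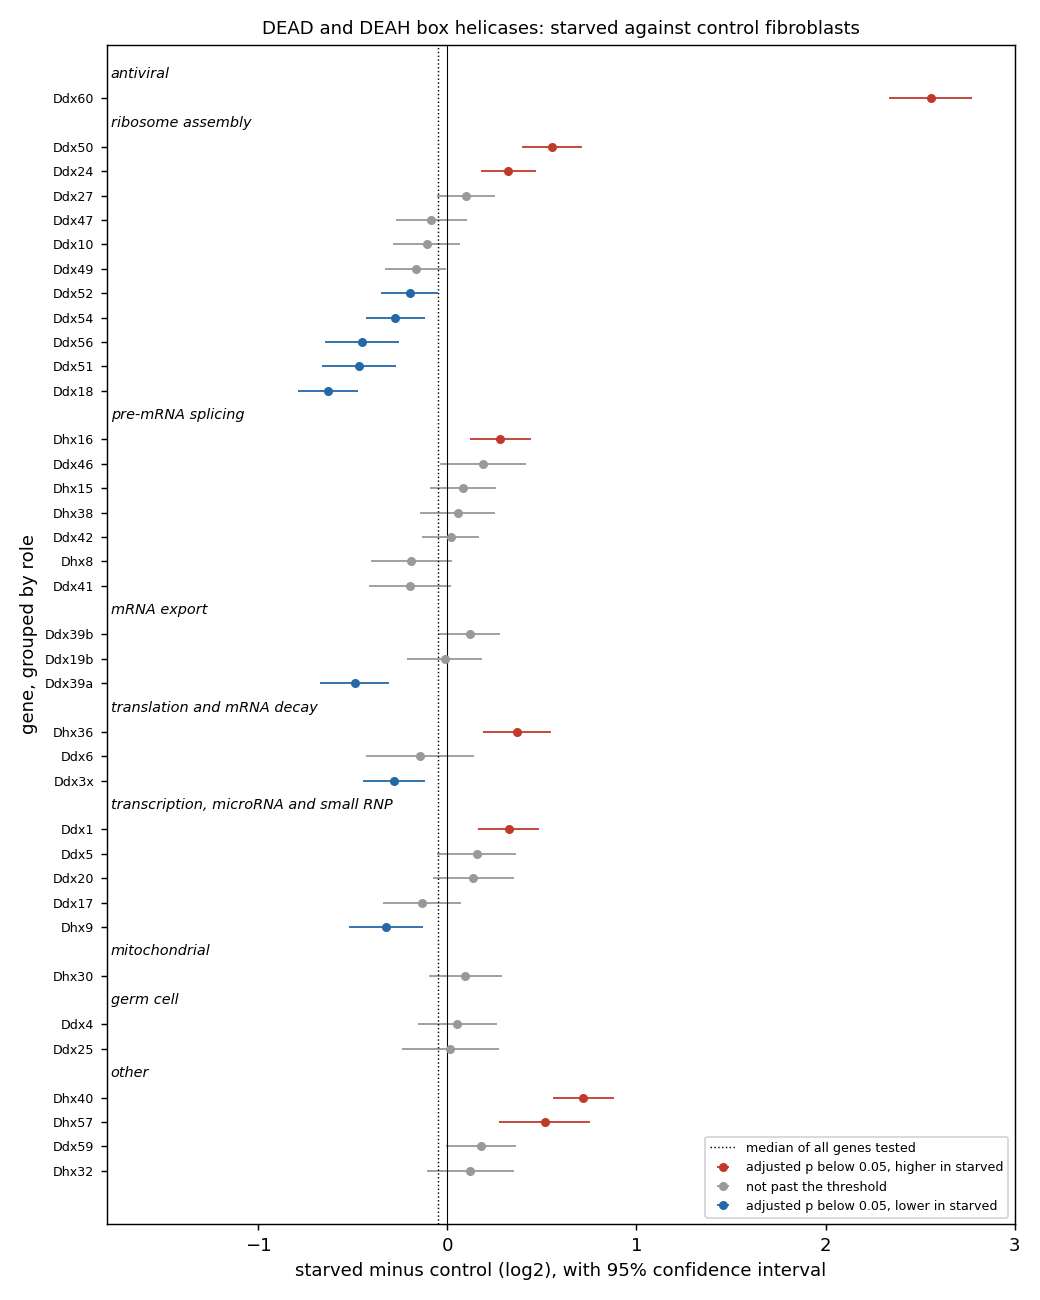
Starved minus control difference of each of the 37 helicases (points, log2 scale) with its 95% confidence interval (bars), grouped by role, with colour showing the call and the dotted line the median of all genes tested (−0.05). Ddx60 stands at 2.56, and the other 36 helicases lie between −0.63 and 0.72.

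The number of helicases called in each direction depended on how the arrays were scaled. Poly-A spike-ins, control RNAs whose probe sets are on every array, read 7.76 to 7.96 in starved and 7.41 to 7.43 in control arrays. Centring each array on them subtracts 0.43 from every difference and moves the median of all genes to −0.47. With this centring 2 helicases, Ddx60 and Dhx40, were higher (5.41%, against 6.94% of all genes) and 28 lower (75.7%, against 75.2%). Centring on the hybridization spike-ins moved the median of all genes to −0.24 and gave 4 higher helicases, Ddx60, Dhx40, Ddx50 and Dhx57 (10.8%, against 13.6% of all genes), and 15 lower (40.5%, against 49.5%). Each centring moves all genes by a single amount, and the shares of the helicases moved with those of all genes. Differences below are those of the deposited values, and a rise smaller than 0.43 lies below 0 with poly-A centring.

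**Figure D2:**
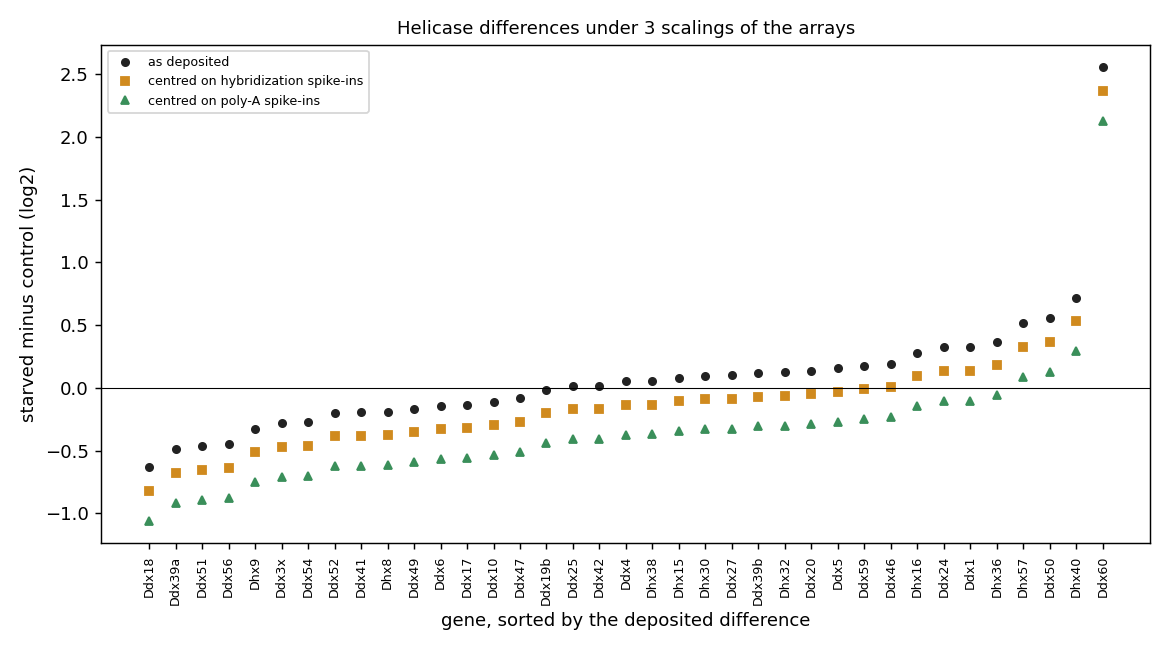
Starved minus control difference (log2 scale, vertical axis) of the 37 helicases, sorted along the horizontal axis, as deposited (circles), centred on the hybridization spike-ins (squares) and centred on the poly-A spike-ins (triangles). Each centring moves all helicases down by the same amount, and with poly-A centring only Ddx60, Dhx40, Ddx50 and Dhx57 stay above 0.

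Ddx60, an interferon-inducible helicase linked to the antiviral response, had the largest difference of the family. Its log2 signals were 6.04, 5.97 and 6.10 in starved cells, against 3.43, 3.32 and 3.70 in control cells. All starved arrays lay far above all control arrays, whose signals were near the dim end of the arrays, where the lowest probe sets read 2.38 to 2.46. The gene was 5.88-fold higher in starved cells (difference 2.56, SE 0.10, limma adjusted p = 7.42e-08), a fold that array background compresses for so dim a control signal. Its difference was larger in size than that of 99.8% of all genes. It stayed between 2.48 and 2.66 when any single array was left out, and was 2.13 with poly-A centring.

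The bases before the listed start of Ddx60 are shown because they hold paired copies of the core of the interferon-stimulated response element. RefSeq promoter sequences (GRCm38.p6) were found for 34 of the 37 members, and the 250 bases before the listed start were searched on either strand for 8 motifs. The first listed start of each gene was used, which for some genes lies inside the RefSeq span of the gene. The element core was written as GAAA, any 2 bases and GAAA (TTTC, any 2 bases and TTTC on the other strand), and was present in 3.04% of 27025 promoters and in 2.79% of the 9882 promoters of genes tested. Copies numbering 2 or more were present in 0.2% of all promoters. The sequence below lies at chr8:61927837-61928086 on the plus strand, and capitals mark the matches to the motifs searched. These were CCAAT once and the element core with CC between its GAAA repeats, at bases 53 to 44 and 19 to 10 before the listed start. The RefSeq span of the gene begins at 61928073, within the second copy, so only the first copy lies wholly before the gene.
Ddx60: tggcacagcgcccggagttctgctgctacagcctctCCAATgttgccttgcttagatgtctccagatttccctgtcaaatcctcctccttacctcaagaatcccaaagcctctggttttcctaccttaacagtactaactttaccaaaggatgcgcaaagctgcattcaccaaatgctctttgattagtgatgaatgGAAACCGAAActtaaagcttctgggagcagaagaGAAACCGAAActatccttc
One other helicase promoter held the core, that of the ribosome assembly helicase Ddx49 (difference −0.17, not called). A match is a description of the letters only.

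Nucleolar helicases of ribosome assembly went both ways. Of 11 members 5 were lower, 2 higher and 4 not called, with a median difference of −0.17, against 22% lower and a median of −0.05 among all genes. Ddx18, which acts in assembly of the large subunit, had log2 signals of 8.53, 8.38 and 8.41 in starved cells, against 9.10, 9.08 and 9.03 in control cells. The groups lay well apart, and the gene was 1.55-fold lower in starved cells (difference −0.63, SE 0.07, limma adjusted p = 6.34e-05). Each of its dimmer probe sets was lower too (−0.71 and −0.41).

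Ddx51, another large subunit helicase, read 7.14, 7.07 and 6.90 in starved and 7.61, 7.51 and 7.39 in control cells, a log2 difference of −0.47 (SE 0.09, limma adjusted p = 0.00168). For Ddx56, likewise of the large subunit, signals were 7.65, 7.63 and 7.59 in starved and 8.24, 8.06 and 7.92 in control cells (difference −0.45, SE 0.09, limma adjusted p = 0.002). Starved arrays lay below control arrays for both genes, and the control arrays of Ddx56 were the more spread. Ddx54, also a large subunit helicase, differed by −0.28 (limma adjusted p = 0.00939), but its dimmer probe set read −0.12 and was not called, and the mean of both missed the threshold (−0.20, adjusted p = 0.057). Ddx52, a helicase of the small subunit, differed by −0.20 (limma adjusted p = 0.0359), and it lost its call when any of 5 single arrays was left out, with adjusted p between 0.0296 and 0.112 over the 6 arrays. The members not called were Ddx49 (−0.17), Ddx10 (−0.11), Ddx47 (−0.08) and Ddx27 (0.10).

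Ddx50 and Ddx24, nucleolar helicases as well, were the higher ones. Ddx50 read 11.06, 11.14 and 11.09 in starved cells, against 10.48, 10.52 and 10.63 in control cells. Every starved array was above every control array, and the difference was 0.55 (1.47-fold, SE 0.07, limma adjusted p = 0.000147). It was 0.37 with hybridization centring and 0.13 with poly-A centring, where it was not called (adjusted p = 0.24). Ddx24 averaged 9.97 ± 0.03 in starved and 9.65 ± 0.02 in control cells (SD, n = 3 arrays each), with no overlap, a difference of 0.32 (SE 0.06, limma adjusted p = 0.00251) that became −0.10 with poly-A centring. Both are measured by a single probe set.

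Other nucleolar assembly genes, taken from a list of box C/D and H/ACA proteins, small subunit processome members and large subunit factors, were lower in 33 of 47 cases (70.2%, against 22% of all genes), higher in 0 (against 22.1%) and not called in 14. Their median difference was −0.42. The box C/D protein Nop56 read 9.22 ± 0.01 in starved and 10.38 ± 0.04 in control cells (SD, n = 3 arrays each; difference −1.16, limma adjusted p = 7.7e-07). The assembly factor Tsr1 read 7.17 ± 0.06 in starved and 8.35 ± 0.02 in control cells (difference −1.18, limma adjusted p = 9.13e-07). Among the partners 21 were lower by at least 0.5, where Ddx18 alone of the 11 helicases was. The highest difference in the list was 0.16, below that of Ddx24 and Ddx50. The difference between the helicases and the list was not tested.

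**Figure D3:**
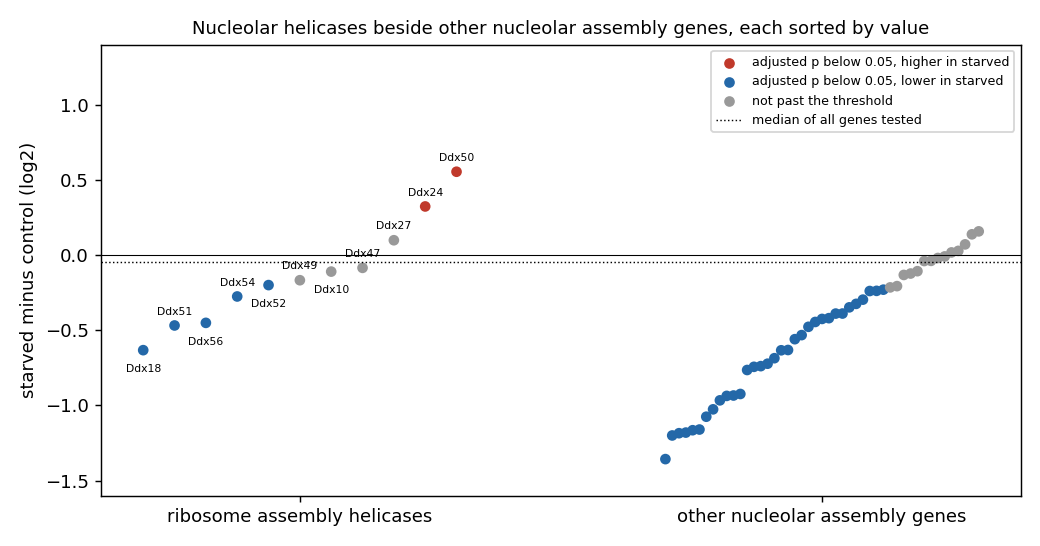
Starved minus control difference (log2 scale, vertical axis) of 11 ribosome assembly helicases (left, named) and 47 other nucleolar assembly genes (right), each sorted by value, with colour showing the call. The helicases run from −0.63 to 0.55 and the other genes from −1.36 to 0.16, and Ddx24 and Ddx50 are the only ones called higher, a call that both lose with poly-A centring.

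The promoters of Ddx18 and Ddx50 are shown since these 2 nucleolar helicases moved furthest and in opposite directions. The Ddx18 window is chr1:121567981-121568230 and the Ddx50 window chr10:62651219-62651468, both on the minus strand, and capitals again mark motif matches. Ddx50 has 2 listed starts, and only the first was used. The RefSeq span of Ddx50 reaches 62658764 at its 5-prime end, so its whole window lies within the gene, unlike that of Ddx18.
Ddx18: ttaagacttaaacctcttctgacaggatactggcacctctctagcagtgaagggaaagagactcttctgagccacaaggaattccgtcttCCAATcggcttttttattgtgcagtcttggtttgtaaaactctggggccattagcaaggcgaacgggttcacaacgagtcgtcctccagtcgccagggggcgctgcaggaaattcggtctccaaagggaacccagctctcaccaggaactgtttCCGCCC
Ddx50: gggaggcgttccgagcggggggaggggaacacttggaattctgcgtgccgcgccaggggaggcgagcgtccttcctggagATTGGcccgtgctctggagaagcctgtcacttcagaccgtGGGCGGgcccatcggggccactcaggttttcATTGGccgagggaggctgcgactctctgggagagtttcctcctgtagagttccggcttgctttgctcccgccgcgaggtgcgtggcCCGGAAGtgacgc
Ddx18 held CCAAT and the GC box (GGGCGG or CCGCCC), and Ddx50 held CCAAT at 2 places, the GC box and the ETS motif CCGGAAG. The ETS motif was in 11 of 34 helicase promoters (32.4%), against 11.6% of the genes tested. It was present in 4 of 8 higher, 2 of 7 lower and 5 of 19 not called members with a promoter. The GC box was found in 61.8% of helicases against 53.2% of genes tested, and CCAAT in 47.1% against 35.8%. The TATA box (TATAAA) and the NRF1 core (GCGC, AT and GCGC in a row) were found in 0 of the 34, against 9.14% and 1.28% of genes tested. The cAMP response element TGACGTCA was found in 3 of 34 (8.82%), Dhx36, Ddx51 and Ddx49, against 2.32%. The E-box CACGTG, the letters bound by Myc and by TFEB, was in 2 of 34, Dhx40 and Ddx4 (5.88%), against 7.74% of genes tested.

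Of 7 spliceosomal helicases Dhx16, which acts before the first splicing step, was higher, 0 were lower and 6 were not called, with a median difference of 0.05. Among all genes 22.1% were higher, 22% lower and 55.9% not called, and the group was not tested against them. Dhx16 read 8.94, 8.95 and 8.84 in starved cells, against 8.69, 8.62 and 8.58 in control cells (difference 0.28, SE 0.07, limma adjusted p = 0.00923), and lay at −0.14 with poly-A centring. Dhx15, which takes spent spliceosomes apart, read 11.44, 11.37 and 11.57 in starved and 11.30, 11.41 and 11.42 in control cells. Its groups overlapped, and the 95% interval of the difference ran from −0.09 to 0.26 (limma adjusted p = 0.427). Branch site helicase Ddx46 (0.19), Dhx38 of the second catalytic step (0.05), Ddx42 of the U2 particle (0.02), Dhx8, which releases spliced mRNA (−0.19), and Ddx41 (−0.20) were not called. Ddx46 gained a call without control replicate 1 (0.30, limma adjusted p = 0.0294) and Dhx8 without starved replicate 1 (−0.27, limma adjusted p = 0.0398). Of 35 core spliceosome genes listed beside them 7 were higher (20%), 8 lower (22.9%) and 20 not called, with a median of −0.04. The branch point binding protein Sf1 (difference 0.65) and the splicing factor Slu7 (0.55) were the higher ones with the smallest adjusted p. Prpf31 of the tri-snRNP (−0.95) and the Sm protein Snrpd3 (−0.74) were the lower ones. G-patch proteins, several of which activate DEAH helicases, had 3 higher (23.1%), 4 lower (30.8%) and 6 not called of 13, with Gpatch8 at 0.96, Cmtr1 at 0.53, Zgpat at −0.79 and Gpatch4 at −0.62.

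Of 3 export helicases 1 was lower (33.3%, against 22% of all genes) and 2 were not called. The paralogs Ddx39a and Ddx39b bind nuclear mRNA and hand it to the export receptor. Ddx39a read 10.39, 10.15 and 10.21 in starved cells, against 10.78, 10.78 and 10.66 in control cells (difference −0.49, SE 0.08, limma adjusted p = 0.000857). Ddx39b read 11.52, 11.53 and 11.38 in starved cells, against 11.39, 11.33 and 11.37 in control cells (difference 0.12, SE 0.07, limma adjusted p = 0.212). Starved arrays were all below control arrays for Ddx39a and overlapped them for Ddx39b. Of the dimmer probe sets of Ddx39a 3 were lower (−0.51 to −0.54), and the dimmest (3.80 in starved and 3.71 in control cells) was not called. The dimmer probe sets of Ddx39b, neither called, read 0.05 and −0.31, the second at 4.93 in starved and 5.24 in control cells. Within an array, the log2 signal of the brightest probe set of Ddx39a minus that of Ddx39b was −1.14, −1.39 and −1.17 in starved cells, against −0.61, −0.55 and −0.71 in control cells, a measure that no centring of the arrays alters. The mean of this contrast differed by −0.61, with an exact two-sided permutation p of 0.1, the smallest that 3 arrays against 3 allow. The pair, and that of Ddx17 with Ddx5, were chosen after their values were seen, and with adjustment over the 2 pairs the p stayed 0.1. Ddx19b, which releases mRNA at the nuclear pore, was not called (difference −0.01). Export partners were lower in 7 of 14 cases (50%, against 22% of all genes), higher in 1 (7.14%, against 22.1%) and not called in 6, with Chtop at −0.67 and Thoc6 at −0.59. The pore protein Gle1, which activates the pore helicase, was the higher one (0.35).

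**Figure D4:**
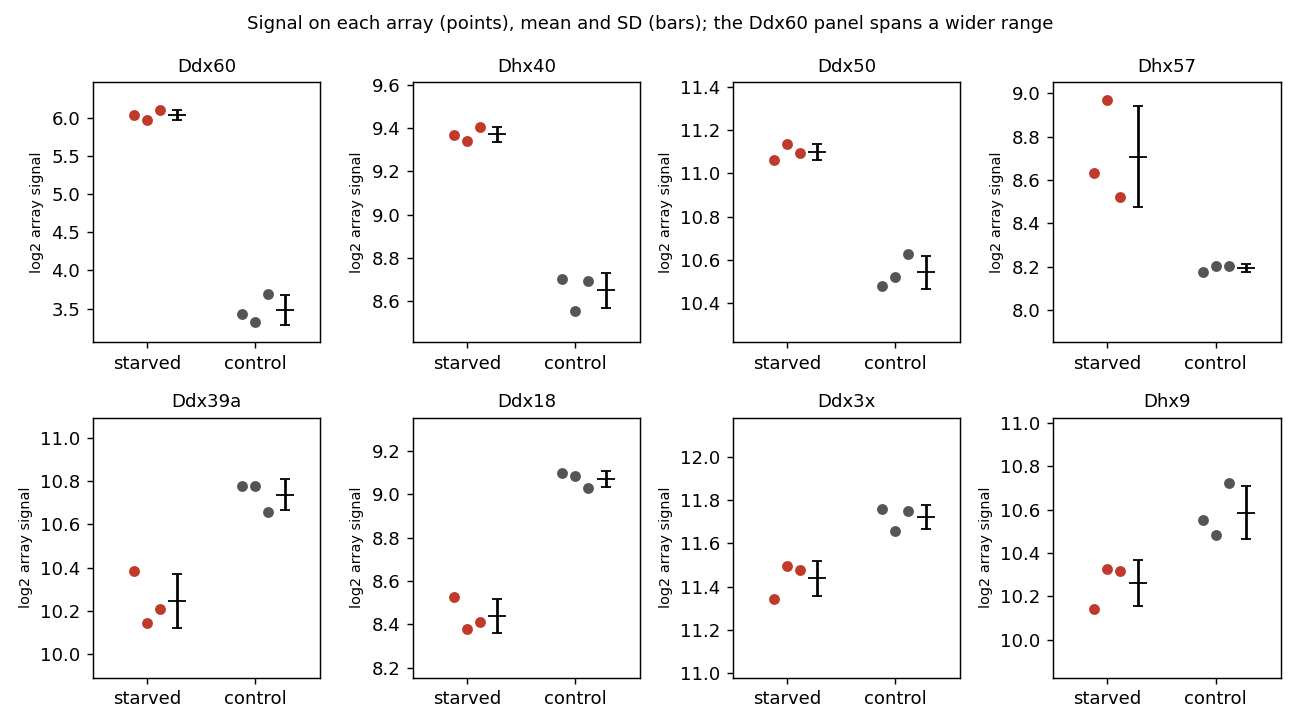
Log2 array signal of 8 called helicases on each starved and control array (points) with mean and SD (bars, n = 3 arrays per group); the Ddx60 panel spans a wider range than the others. Ddx60, Dhx40, Ddx50 and Dhx57 are higher in starved cells and Ddx39a, Ddx18, Ddx3x and Dhx9 lower, with no overlap of arrays in any panel.

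Helicases of translation and mRNA decay numbered 3, of which 1 was higher (33.3%, against 22.1% of all genes), 1 lower (33.3%, against 22%) and 1 not called. Ddx3x, which helps translate mRNAs with structured leaders, read 11.34, 11.49 and 11.47 in starved cells, against 11.76, 11.66 and 11.75 in control cells. The groups did not overlap, and the difference was −0.28 (SE 0.07, limma adjusted p = 0.0103), with each dimmer probe set lower as well (−0.31 and −0.47). Dhx36, which unwinds G-quadruplexes, read 9.16, 9.27 and 9.32 in starved and 8.96, 8.76 and 8.93 in control cells (difference 0.37, SE 0.08, limma adjusted p = 0.00426). Its dimmer probe set read −0.08 and was not called, the mean of both lost the call (0.14, adjusted p = 0.369), and with poly-A centring it lay at −0.06. Ddx6, which represses and helps decap mRNAs, read 9.27, 9.72 and 9.84 in starved cells, against 9.77, 9.77 and 9.72 in control cells. A single starved array was low, the interval of the difference ran from −0.43 to 0.14, and the gene was not called (limma adjusted p = 0.394). Decapping and deadenylation genes, the partners of Ddx6, were higher in 6 of 13 cases (46.2%, against 22.1% of all genes), lower in 4 (30.8%, against 22%) and not called in 3. Pan2 (1.07) and Lsm14b (0.53) were higher, and Cnot6 (−0.51) and Lsm1 (−0.42) lower. In the list of the cap-binding complex eIF4F and its regulators 1 of 10 was called (10%, against 44.1% of all genes). This was the cap-binding protein Eif4e, which read 10.29 ± 0.12 in starved and 11.05 ± 0.03 in control cells (SD, n = 3 arrays each; difference −0.77, limma adjusted p = 3.42e-05). The list leaves out the helicases Eif4a1 and Eif4a2, which are given below and were both called.

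Helicases of transcription, microRNA processing and small ribonucleoproteins had 1 higher (20%, against 22.1% of all genes), 1 lower (20%, against 22%) and 3 not called members. Dhx9, RNA helicase A, read 10.14, 10.33 and 10.32 in starved cells, against 10.55, 10.49 and 10.72 in control cells (difference −0.32, SE 0.09, limma adjusted p = 0.0128). The call was lost without control replicate 3 (−0.26, adjusted p = 0.0558), and its dimmer probe sets (−0.29 and −0.16) were not called. Ddx1, part of the tRNA ligase complex, read 11.52, 11.45 and 11.37 in starved cells, against 11.17, 11.07 and 11.13 in control cells (difference 0.32, SE 0.07, limma adjusted p = 0.00439), and lay at −0.10 with poly-A centring. Ddx5, a transcription co-regulator that also works with the microprocessor, read 11.40, 11.53 and 11.73 in starved and 11.45, 11.30 and 11.44 in control cells, with overlap (difference 0.16, limma adjusted p = 0.21). Its paralog Ddx17 read 10.58, 10.93 and 10.74 in starved and 10.87, 10.85 and 10.93 in control cells, with overlap (difference −0.13, limma adjusted p = 0.269), although its dimmest probe set was called (−0.94). The brightest probe set of Ddx17 minus that of Ddx5 within an array was −0.82, −0.59 and −0.99 in starved and −0.57, −0.44 and −0.51 in control cells, with an exact two-sided permutation p of 0.1. Dimmer probe sets differed by −0.22 and −0.94 for Ddx17 and by −0.12 to 0.11 for Ddx5, where none was called. The contrast was not computed with them. Ddx20, known as Gemin3 of the SMN complex, was not called (0.14), but was without starved replicate 2 (0.24, limma adjusted p = 0.0355). Of 5 measured SMN complex partners Gemin8 (0.61) and Gemin2 (0.30) were higher, Gemin7 (−0.31) and Strap (−0.31) lower and 1 not called. Of 5 microprocessor and microRNA partners Prkra was higher (0.37) and 4 were not called. Gemin2, Prkra and Gle1 are rises below 0.43 and so lie below 0 with poly-A centring.

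Members outside these groups held 2 of the larger rises. Dhx40 read 9.37, 9.34 and 9.41 in starved cells, against 8.70, 8.56 and 8.69 in control cells. The starved arrays lay close together and far above the control arrays (difference 0.72, 1.65-fold, SE 0.07, limma adjusted p = 2.85e-05). The call held with poly-A centring (0.29, adjusted p = 0.0145), as it did for Ddx60. The promoter window of Dhx40 is shown because it holds the E-box. It lies at chr11:86807661-86807910 on the minus strand, with capitals at the E-box CACGTG and the GC box. The RefSeq span of Dhx40 reaches 86807877 at its upstream end, so most of the window, with both motifs, lies within the gene.
Dhx40: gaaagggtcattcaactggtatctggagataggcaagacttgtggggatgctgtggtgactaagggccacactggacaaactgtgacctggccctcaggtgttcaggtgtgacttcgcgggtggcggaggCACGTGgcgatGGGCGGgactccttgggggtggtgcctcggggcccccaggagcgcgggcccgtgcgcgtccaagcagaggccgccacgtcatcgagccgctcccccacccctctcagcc
Dhx57 read 8.63, 8.97 and 8.52 in starved cells, against 8.17, 8.21 and 8.20 in control cells. The control arrays lay close together and the starved arrays were spread (difference 0.51, SE 0.11, limma adjusted p = 0.00308), with values of 0.38 to 0.61 when single arrays were left out. It was not called with poly-A centring (0.09, adjusted p = 0.423), and its only probe set can bind several transcripts. Its promoter held none of the motifs searched. Ddx59 (0.18) and Dhx32 (0.12) were not called, Ddx59 gaining a call without starved replicate 3 (0.25, limma adjusted p = 0.0216). The mitochondrial RNA helicase Dhx30 was not called (0.10), although its dimmest probe set was (0.72).

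Germ cell helicases stayed near the dim end of the arrays in both groups. Ddx4, the Vasa homolog, averaged 3.09 ± 0.18 in starved and 3.03 ± 0.05 in control cells, and the testis helicase Ddx25 averaged 3.62 ± 0.25 in starved and 3.61 ± 0.05 in control cells (SD, n = 3 arrays each). Neither was called, with 95% intervals of −0.16 to 0.26 for Ddx4 and −0.24 to 0.27 for Ddx25.

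Helicases of related families under other names gave 4 higher (33.3%, against 22.1% of all genes), 1 lower (8.33%, against 22%) and 7 not called of 12. In either direction 41.7% were called, against 44.1% of all genes, and the list was not tested against them. The paralogs Eif4a1 and Eif4a2, translation initiation factors of the DEAD box type, were called in opposite directions. Eif4a2 read 12.06 ± 0.09 in starved and 11.44 ± 0.06 in control cells (difference 0.61, limma adjusted p = 0.000105), and Eif4a1 read 12.73 ± 0.03 in starved and 13.01 ± 0.02 in control cells (SD, n = 3 arrays each; difference −0.28, limma adjusted p = 0.00594). Upf1, the helicase of nonsense-mediated decay, was higher as well (0.67, limma adjusted p = 0.000246).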

How the data were processed

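The authors deposited 1 log2 value per probe set and array, made with affy and RMA per the submitters' processing notes, with no version stated there. Quantile normalization, a step of RMA, hides a change in total mRNA, and background compresses the folds of dim genes. Arrays hold no read depth, and their number limits the precision.

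Probe sets with 1 gene in the platform annotation were kept (20380 of 22690). A gene took its brightest probe set, which left 12393 genes, and no filter on dim genes was applied. RefSeq held the gene identifier of 20351 probe sets, with 0 changed symbols. Groups came from the sample titles. All 6 arrays entered limma 3.58.1 (R 4.3.3; lmFit, eBayes, two-sided, no covariate), adjusted over all genes. The steps were tested on simulated data. Tables and plots used Python 3.11.15, pandas 2.3.3 and matplotlib 3.10.9.

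The members, role groups and gene lists, from textbook knowledge, were chosen with earlier results of these data known. Array values are given for every called member past 0.5 on the log2 scale, and whatever their values for Ddx3x, Ddx5, Ddx6, Ddx17, Ddx39b, Dhx9 and Dhx15. Up to 2 higher and 2 lower genes per list, by smallest adjusted p, are named. Other array values, for called members, and the markers named were chosen after they were seen.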

Additional observations from a re-analysis of the deposited data

Results flagged for a closer look

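Among 38 dimmer probe sets, which the comparisons above do not use, 3 were called where the brightest probe set of the gene was not. The share of such cases among the dimmer probe sets of all genes is not given here, so the count may be usual. A probe set of Ddx17 read 6.81 ± 0.22 in starved and 7.75 ± 0.06 in control cells (SD, n = 3 arrays each), a log2 difference of −0.94 with limma adjusted p = 0.000147 over all probe sets, against −0.13 for the brightest. A dim probe set of Dhx30 (4.23 in starved and 3.51 in control cells) differed by 0.72 (limma adjusted p = 0.00147), against 0.10 for the brightest, and its other dimmer probe sets, at 0.18 and 0.06, were not called. A probe set of Ddx46 differed by 0.33 (limma adjusted p = 0.00611), against 0.19.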

How the results depend on the processing

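The counts of 8 higher and 8 lower helicases kept to within 1.5 times under averaging over each gene's probe sets (8 and 7), removal of the dimmest 40% of genes (7 and 9), further quantile normalization (8 and 9), median centring (8 and 9), trend and robust settings (8 and 8) and array weights (8 and 8). Averaging over probe sets lost the calls of Ddx52, Ddx54, Dhx36 and Dhx9 and added Ddx17 (−0.43), Ddx49 (−0.20) and Dhx30 (0.26). Removal of the dimmest 40% of genes took out Ddx60, Ddx4 and Ddx25 and left 34 helicases. Of these 20.6% were higher and 26.5% lower, against 36.1% and 29.7% of all genes kept. Leaving out single arrays gave 8 to 9 higher, 6 to 9 lower and a median of 0.03 to 0.07. Of the 16 called helicases 14 kept their call without any single array, Ddx52 and Dhx9 lost it, and 4 others, Ddx20, Ddx46, Ddx59 and Dhx8, gained one without at least 1 array. Without probe sets that bind several transcripts, 32 helicases were left, 7 higher and 7 lower with a median of −0.040, losing the calls of Ddx54 and Dhx9 and adding Ddx17 and Dhx30. The higher helicases Ddx24 and Dhx57 have only such a probe set and dropped out, so this setting does not check their calls. An adjusted p below 0.01 gave 8 higher and 5 lower, limma's treat against a fold of 1.2 gave 3 and 1, and a difference of at least 0.5 gave 4 and 1, all stricter by construction.

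Hybridization centring gave 4 higher, 15 lower and a median of −0.13 (all genes 13.6% higher and 49.5% lower), and poly-A centring 2 higher, 28 lower and a median of −0.37 (all genes 6.94% and 75.2%). With poly-A centring the rises of Ddx1 (−0.10), Ddx24 (−0.10), Dhx16 (−0.14) and Dhx36 (−0.059) turned below 0 and were not called. Positive differences that had not been called became lower calls for Ddx20 (−0.29), Ddx25 (−0.41), Ddx27 (−0.33), Ddx39b (−0.31), Ddx4 (−0.37), Ddx42 (−0.41), Ddx5 (−0.27), Ddx59 (−0.25), Dhx15 (−0.34), Dhx30 (−0.33), Dhx32 (−0.30) and Dhx38 (−0.37). The cause was not tested. For 9 helicases a dimmer probe set had the opposite sign to the brightest, of which Ddx39a (0.10) and Dhx36 (−0.082) were called by the brightest, and the cause was not tested.

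A fit with the replicate block gave 8 higher and 7 lower helicases with a median of 0.05, without Ddx52 (adjusted p = 0.0566). The deviations of same-numbered arrays correlated by −0.022 to 0.002, against −0.047 to 0.052 for arrays with different numbers. So few arrays cannot show whether same-numbered arrays were paired, and the labels do not say.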
